A study of Mus musculus with 6 samples.

Results

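The data were read for 9 genes of growth control: Akt1 and Akt2, which encode protein kinases that carry growth factor signals, Foxo1, Foxo3 and Foxo4, forkhead transcription factors that Akt phosphorylates, Mtor and its partner Rptor, and the tuberous sclerosis genes Tsc1 and Tsc2. They were taken as every non-control probe whose gene name in the array files was exactly 1 of these 9 symbols. The rule found 14 of the 55681 probes, and each gene was represented by its brightest probe, giving 9 of the 32083 genes in the comparison. The rule used no measured value. The cells were satellite cells, the muscle stem cells that lie under the fibre's basal lamina, sorted from skeletal muscle of male C57BL/6 mice as integrin alpha7 and CD34 positive and negative for CD31, CD45, CD11b and Sca1. There were 3 adult samples, all from mice of 6 months, and 3 young samples, from mice of 3, 2 and 3 months for replicates 1, 2 and 3. No treatment, transgene or mutant allele is named for either group, the samples are called biological replicates, and the number of mice behind each is not stated. RNA was amplified by a whole transcriptome method for few cells and hybridised to 1 single-colour array per sample.

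In growing cells, insulin and other factors activate PI3K, whose lipid product brings Akt to the membrane. Akt inhibits the complex of the Tsc1 and Tsc2 proteins, a brake on the small GTPase Rheb, and active Rheb at the lysosome switches on mTOR complex 1, which holds mTOR and Raptor and promotes protein synthesis. Akt also phosphorylates Foxo factors, which are then bound by 14-3-3 proteins and kept out of the nucleus. In mouse satellite cells, Foxo factors are known for maintaining quiescence, and mTOR complex 1 for the alert state that precedes activation. Most of this control acts on proteins and phosphate groups, which arrays of RNA do not measure.

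Values are log2 of the background-corrected signal relative to the 75th percentile of the same array, so 0 is that percentile, and differences are adult minus young. Each difference has its standard error (SE) and a p-value from limma, a moderated linear model, adjusted by Benjamini-Hochberg over all 32083 genes, with a threshold of 0.05. Levels of different probes are not compared. With 3 samples a group, an exact two-sided permutation test of a single gene cannot go below p = 0.1, so the statements rest on the fit over all genes.

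Akt1, Akt2 and Foxo4 fell in adult cells, and none of the 9 genes rose. Akt1 was 2.16-fold, Akt2 1.54-fold and Foxo4 2.13-fold lower in adult than in young cells. Rptor was 1.92-fold lower but did not pass the threshold, and Foxo1, Foxo3, Mtor, Tsc1 and Tsc2 did not pass it either. Under several other ways of processing, among them the deposited series matrix, Rptor passed and Akt2 did not. Of all genes, 28.5% passed, 8.45% as lower and 20.1% as higher in adult cells. Among the 17340 genes with a symbol in the gene table, 26.9% passed, 12.2% as lower and 14.7% as higher. Among the 8021 genes above the 75th percentile of mean level, 29.3% passed and 18.9% did so as lower. The 3 of 9 is thus a small count on a wide background of change. The median difference of the 9 genes was -0.34 on the log2 scale, against 0.30 over all genes, -0.03 over genes with a symbol and -0.31 over the genes above the 75th percentile. Of the 9 differences 8 were below 0, beside 13015 of all 32083 genes. Below 0 were also 8857 of the 17340 genes with a symbol and 5355 of the 8021 above the 75th percentile. The 8 became 6 with quantile normalization or cyclic loess and 9 with median scaling. In the main fit 4 of the 9 genes had an unadjusted p under 0.05, beside 48.1% of all genes. The same 4, Akt1, Akt2, Foxo4 and Rptor, had every adult array below every young array, as did 21.6% of all genes. RNA from fewer cells of a kind and less RNA per cell cannot be told apart in such samples.

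**Figure D1:**
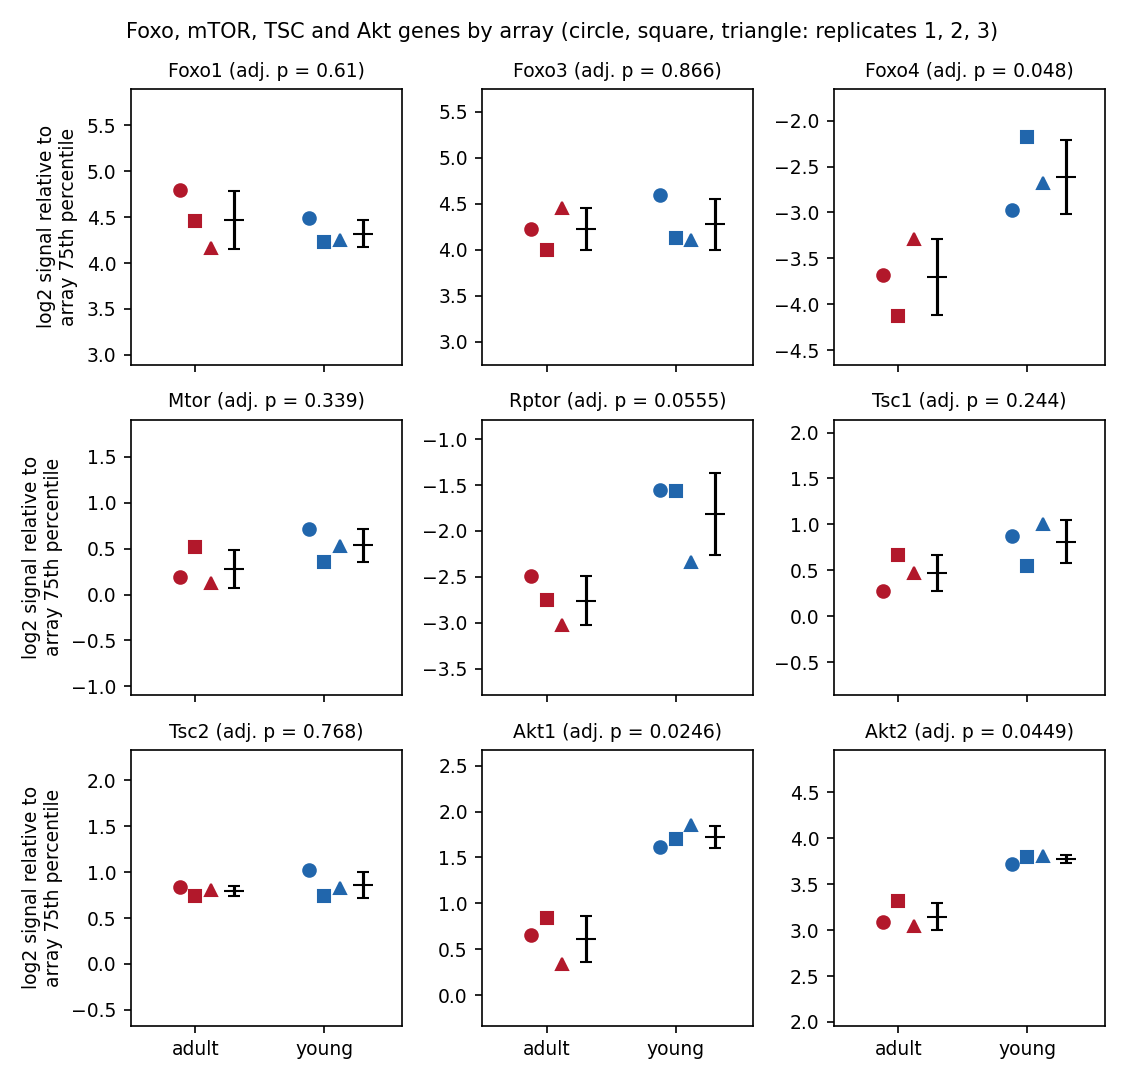
Level of each of the 9 genes on each array, as log2 signal relative to the array's 75th percentile. Circles, squares and triangles are replicates 1, 2 and 3, adult arrays are on the left and young arrays on the right of each panel, and the bar is the mean with its SD. Each panel spans the same number of log2 units. The adult and young points separate for Akt1, Akt2, Foxo4 and Rptor and overlap for the other genes.

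Akt1 is the widely expressed Akt isoform, tied to growth and survival. Akt1 stood at 0.66, 0.84 and 0.34 log2 on adult arrays 1, 2 and 3, against 1.61, 1.71 and 1.85 on young arrays 1, 2 and 3. The highest adult array lay well below the lowest young one, and each group stayed within a narrow band. The means were 0.61 ± 0.25 in adult and 1.72 ± 0.12 in young cells (SD, n = 3 each). The limma difference was -1.11 ± 0.21 (SE, adjusted p = 0.0246), lower on 3 of 3 adult arrays than on any young one. Its probe, printed in 2 spots that were averaged, lies on the minus strand at chr12:113892079-113892138 of mouse build mm9 and starts at base 2583 of the transcript it was designed on. The call held in 13 of 14 other ways of processing, with adjusted p between 0.0072 and 0.0749. Of the 14, normexp with quantile normalization and the deposited series matrix gave practically the same fit. They are counted as 2, here and for the other genes. With 1 array left out the adjusted p lay between 0.0357 and 0.0715, and the call held only without young replicate 2.

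Akt2 is the isoform known for insulin-driven glucose uptake in muscle and fat. Akt2 stood at 3.09, 3.31 and 3.04 log2 on adult arrays 1, 2 and 3, against 3.72, 3.79 and 3.80 on young arrays 1, 2 and 3. All 3 adult arrays lay below all young arrays, and the young arrays differed from each other by less than 0.1 log2. The limma difference was -0.62 ± 0.17 (SE, adjusted p = 0.0449). The gene had 2 further probes. One shares 53 of its 60 bases with the probe used and gave -0.69 ± 0.19 log2 (limma over all probes, adjusted p = 0.0495). The other starts 6179 bases upstream, at chr7:28418226-28418285 on the plus strand, and shares no base with them. It stood at 2.20, 1.91 and 1.72 log2 on adult arrays 1, 2 and 3, against 2.84, 2.67 and 2.65 on young arrays 1, 2 and 3, a difference of -0.78 ± 0.21 (limma over all probes, adjusted p = 0.0454). Probes at both places were thus lower on each adult array than on any young array. In the fit of single probes 23.5% of 48413 probes passed, and there the probe used for the gene had an adjusted p of 0.0536. The gene's call held in 4 of 14 other ways of processing, with adjusted p between 0.0104 and 0.133, and in none of the 6 fits without 1 array, where it lay between 0.0789 and 0.111.

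The Akt probes are shown because Akt1 had the smallest p of the 9 genes and Akt2 was read at 2 separate places. The first line is the whole upstream Akt2 probe, and the second the 30 bases at chr7:28424431-28424460 that both overlapping Akt2 probes hold, near the transcript's end, with the polyadenylation signal in capitals. The last is 30 bases of the Akt1 probe at chr12:113892109-113892138.
Akt2 A_55_P2066523: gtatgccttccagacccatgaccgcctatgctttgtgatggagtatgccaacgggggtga
Akt2 A_55_P2066518 and A_55_P2025228: tttgtacggtacaagcAATAAAgacactca
Akt1 A_55_P2066384: gccattgctgcaccatgtcgttttttacaa

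Foxo1 is the forkhead factor best known for turning on gluconeogenic and atrophy genes. Foxo1 stood at 4.79, 4.46 and 4.16 log2 on adult arrays 1, 2 and 3, against 4.49, 4.23 and 4.25 on young arrays 1, 2 and 3. The groups overlapped, with adult replicate 1 the highest and adult replicate 3 the lowest of the 6 arrays. By limma the difference was 0.15 ± 0.23 (SE, adjusted p = 0.61), with a 95% interval from -0.40 to 0.70. The probe used is at chr3:52150183-52150242 on the plus strand. A second probe, 3106 bases downstream, gave -0.03 ± 0.30 (limma over all probes, adjusted p = 0.94).

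Foxo3 is the family member most studied in stem cell quiescence. Foxo3 stood at 4.22, 3.99 and 4.45 log2 on adult arrays 1, 2 and 3, against 4.60, 4.13 and 4.10 on young arrays 1, 2 and 3. The groups overlapped, and young replicate 1 was the highest of the 6 arrays. Foxo3 differed by -0.05 ± 0.23 in limma (SE, adjusted p = 0.866), with a 95% interval from -0.62 to 0.51, and a difference within it was not detectable with these arrays. Its probe is at chr10:41905610-41905669 on the minus strand. A second probe that the files name Foxo3 starts 61678 bases away, at chr10:41967288-41967347, and was designed on a cDNA clone. This clone probe stood at 1.53, 0.04 and 0.12 log2 on adult arrays 1, 2 and 3, against 0.13, -0.15 and 0.15 on young arrays 1, 2 and 3. Adult replicate 1 stood far above the other 5 arrays, which lay close together, and the difference of 0.52 ± 0.43 did not pass (limma over all probes, adjusted p = 0.376).

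Foxo4, on the X chromosome, encodes another Foxo factor under the same Akt control. Foxo4 stood at -3.69, -4.13 and -3.29 log2 on adult arrays 1, 2 and 3, against -2.97, -2.18 and -2.68 on young arrays 1, 2 and 3. Both groups spread widely, and the highest adult array lay below the lowest young one by less than the SD within either group. The limma difference was -1.09 ± 0.31 (SE, adjusted p = 0.048). The signal was dim, between 35.6 and 54.3 intensity units on adult arrays and between 70.3 and 147 on young arrays, but well above background on all 6. A second probe, sharing 52 bases, stood at -4.33, -4.56 and -3.86 log2 on adult arrays 1, 2 and 3, against -2.90, -2.51 and -2.73 on young arrays 1, 2 and 3. That is a difference of -1.54 ± 0.25 (limma over all probes, adjusted p = 0.0233), beside an adjusted p of 0.0536 for the first probe in the same fit. The gene's call held in 8 of 14 other ways of processing, with adjusted p between 0.0121 and 0.11, and in none of the 6 fits without 1 array (0.0716 to 0.116). Over the 14 ways the size of the difference varied widely, from -2.05 to -0.94 log2.

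As the Foxo4 probes cover nearly the same bases, they are one place in the transcript read by 2 oligonucleotides. The 30 bases shown, at chrX:98454974-98455003 on the plus strand, are held by both.
Foxo4 A_55_P2113026 and A_55_P2150901: gctaaggattggtggcaacacactcaagtg

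Mtor encodes the kinase shared by both mTOR complexes. Mtor stood at 0.19, 0.51 and 0.13 log2 on adult arrays 1, 2 and 3, against 0.72, 0.35 and 0.53 on young arrays 1, 2 and 3. Adult replicate 2 reached into the young range, so the groups overlapped. Mtor differed by -0.26 ± 0.20 in limma (SE, adjusted p = 0.339), with a 95% interval from -0.76 to 0.24. The probe is at chr4:147931250-147931309 on the plus strand.

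Rptor encodes Raptor, the subunit that brings substrates to mTOR complex 1. Rptor stood at -2.49, -2.76 and -3.03 log2 on adult arrays 1, 2 and 3, against -1.55, -1.56 and -2.34 on young arrays 1, 2 and 3. The groups did not overlap, but young replicate 3 stood much nearer to the adult arrays than to the other 2 young ones. The limma difference was -0.94 ± 0.29 (SE, adjusted p = 0.0555), with a 95% interval from -1.65 to -0.23. Without young replicate 3 it was -1.20 (adjusted p = 0.051). It passed in 7 of 14 other ways of processing, with adjusted p between 0.0121 and 0.0794 over all 14. The probe is at chr11:119760596-119760655 on the plus strand.

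Tsc1 encodes hamartin, which stabilises its partner tuberin. Tsc1 stood at 0.27, 0.67 and 0.47 log2 on adult arrays 1, 2 and 3, against 0.88, 0.55 and 1.005 on young arrays 1, 2 and 3. The groups overlapped through adult replicate 2, and the limma difference was -0.34 ± 0.21 (SE, adjusted p = 0.244). Tsc2 encodes tuberin, the part of the complex that acts on Rheb. Tsc2 stood at 0.84, 0.74 and 0.81 log2 on adult arrays 1, 2 and 3, against 1.02, 0.74 and 0.83 on young arrays 1, 2 and 3. Young replicate 1 was the highest of the 6 arrays, and the other arrays lay close together. Tsc2 differed by -0.07 ± 0.17 in limma (SE, adjusted p = 0.768), with a 95% interval from -0.49 to 0.36. The probes are at chr2:28546610-28546669 on the plus strand for Tsc1 and at chr17:24732882-24732941 on the minus strand for Tsc2. Whether a probe lies in coding sequence or a UTR was not read here.

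**Figure D2:**
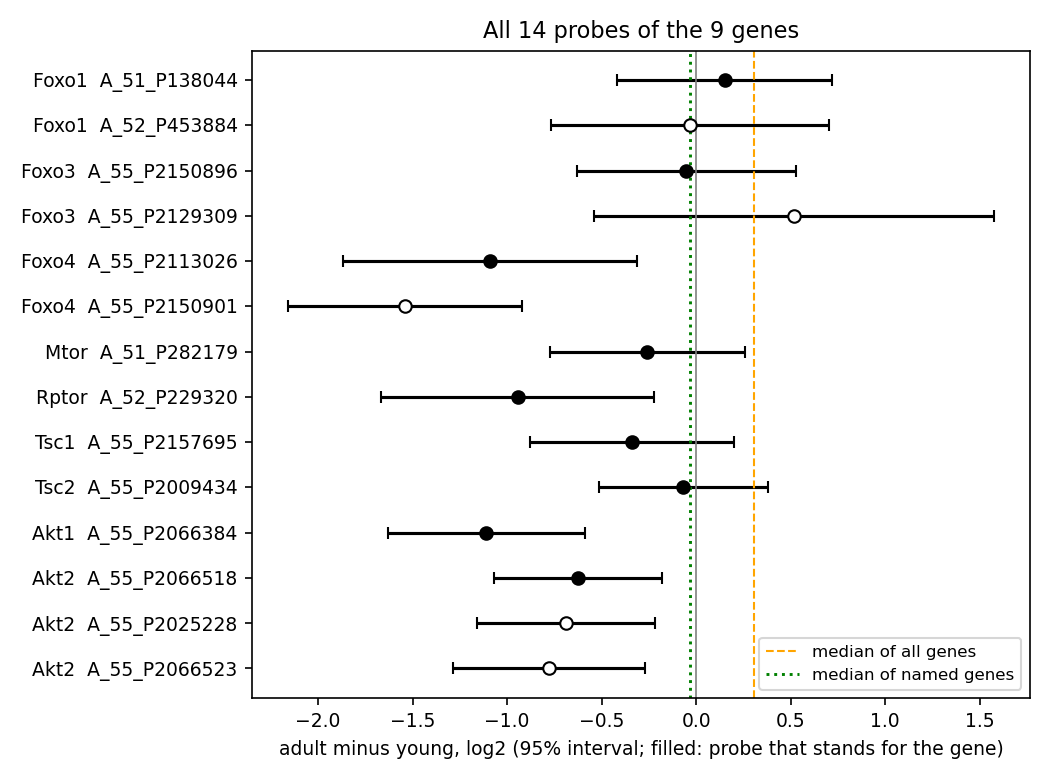
Difference between adult and young cells in log2 units for each of the 14 probes, with its 95% interval from the fit of all probes. Filled points stand for the gene, the dashed line is the median of all genes (0.30) and the dotted line that of genes with a symbol (-0.03). All 3 Akt2 probes, the Akt1 probe, both Foxo4 probes and the Rptor probe have intervals below 0, and both Foxo1 and both Foxo3 intervals span 0.

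Array position was the sole technical grouping in the files, since a single slide and a single scan held every array. Adult replicate 1 and young replicates 1 and 2 were in the first row of the slide, and the others in the second. Within the first and second row, without a test, Akt1 differed by -1.001 and -1.26 log2, Akt2 by -0.67 and -0.63, Foxo4 by -1.11 and -1.03, and Rptor by -0.94 and -0.56. Each of these 4 genes had every adult array below every young array, so a negative sign within both rows was fixed in advance. The signs are therefore no check on array position. With the row as a block, Akt1 was the gene of the 9 that passed (limma adjusted p = 0.0416), and Akt2 (0.0731) and Foxo4 (0.0883) did not.

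Scaling arrays to a different level moves all genes together, whereas quantile normalization and cyclic loess moved genes by different amounts. With quantile normalization Foxo4 went from -1.09 to -2.05 log2 and Rptor from -0.94 to -1.62. Akt1 went the other way, from -1.11 to -0.96, as did Akt2, from -0.62 to -0.44. Scaling to the array median instead of the 75th percentile put the median of all genes at -0.24 in place of 0.30. The medians of the 9 genes and of all genes lay closer together under other settings, at -0.14 and 0.04 with cyclic loess, -0.23 and -0.06 with quantile normalization, and -0.18 and -0.01 with normexp. Under median scaling Mtor (-0.80, limma adjusted p = 0.0438) and Tsc1 (-0.88, adjusted p = 0.0393) also passed as lower, as did Rptor, and 6 of the 9 genes were called, beside 27.5% of all genes called lower. Akt1 passed under each of the 6 scalings and background corrections that were run, between -1.65 and -0.86 log2. The signs of Foxo1, Foxo3 and Tsc2 turned with the scaling, and none of these differences passed.

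**Figure D3:**
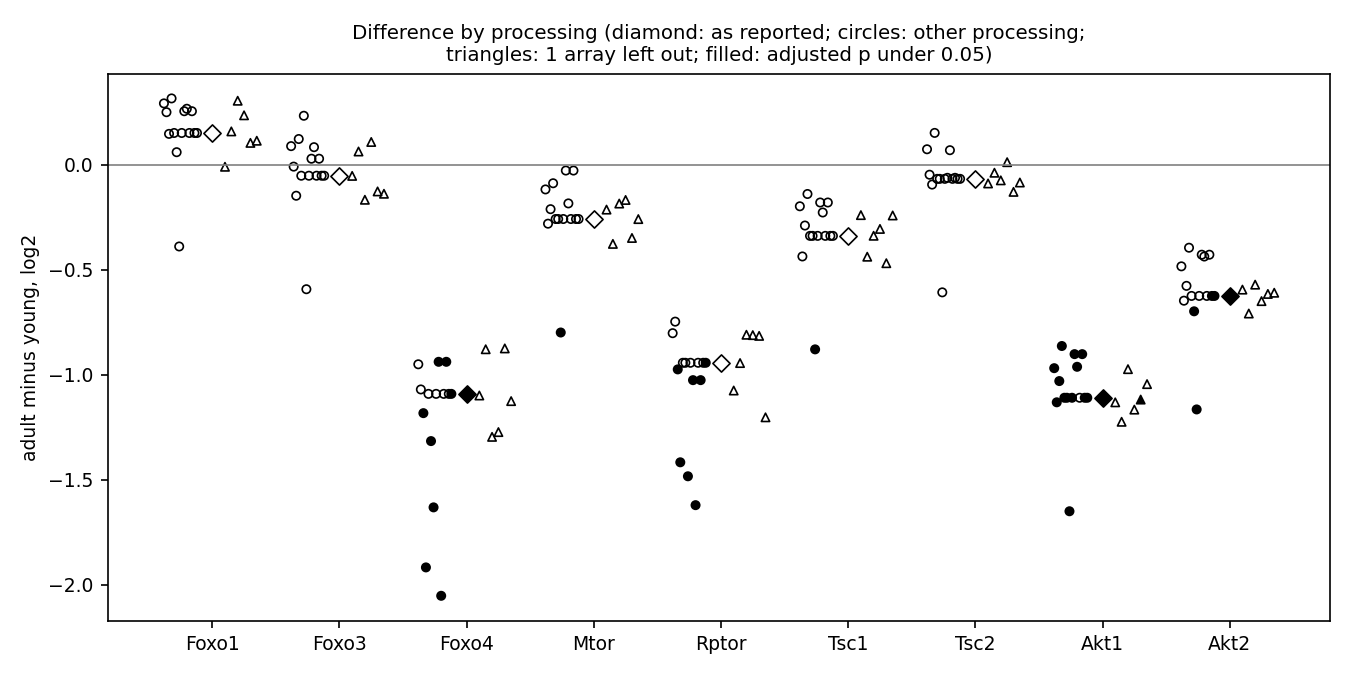
Difference between adult and young cells in log2 units for each of the 9 genes under every processing that was run. The diamond is the value reported, circles are 14 other settings, triangles are the 6 fits without 1 array, and filled symbols have an adjusted p under 0.05. The points of Akt1, Akt2, Foxo4, Rptor, Mtor and Tsc1 all lie below 0, and those of Foxo1, Foxo3 and Tsc2 lie on both sides.

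Other genes of the pathway were taken from 7 lists by role, 147 genes in all, of which 145 were measured. Of these 29 passed, 24 as lower and 5 as higher in adult cells, beside the 12.2% and 14.7% of genes with a symbol. Among genes above the 75th percentile of mean level, 18.9% passed as lower. The 29 genes had the same sign in each of 13 other ways of processing, but several of these change the test and leave the difference as it was. The calls were less stable, and a gene passed in between 4 (Eif4ebp2 and Pik3ip1) and 12 of the 13. None of the 29 genes passed in all of the 6 fits without 1 array. In the fit of single probes, the other probes of Prmt1 (-0.89 log2), Seh1l (-0.84) and Xpo1 (-0.54) were lower but did not pass. The probes of Ccng2, Eif4ebp2 and Pik3ip1, the sole ones of these genes, did not pass in that fit.

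On the PI3K side of Akt, 1 of 19 measured genes rose and 2 fell, with a median of -0.27 log2. Pik3cg, the gamma catalytic subunit known from leukocytes, was higher in adult cells by 2.31 ± 0.43 log2 (limma adjusted p = 0.0246). Inppl1, the SHIP2 phosphatase that removes a phosphate from the PI3K product, was lower at -1.48 ± 0.28 (adjusted p = 0.0249). Pik3r4, the regulatory subunit of the class III enzyme that serves autophagy, was lower at -0.89 ± 0.20 (adjusted p = 0.0309). Leukocyte markers summed to between 379 and 403 times the 75th percentile on adult arrays and between 220 and 426 times on young arrays (3 of 10 higher). Without Itgam, whose probe made up most of that sum, they summed to between 12.6 and 13.997 times on adult arrays and between 8.33 and 10.1 times on young arrays, which did not overlap. All 10 differences were above 0, with a median of 0.60 log2. Of the 10 markers 3 passed as higher, beside 14.7% of genes with a symbol. These 3 were Adgre1, higher by 2.32 ± 0.46 log2, Cd79a, higher by 1.64 ± 0.35 log2, and Tyrobp. Tyrobp was well above background on 3 adult arrays and on 0 young arrays. It met the filter of 3 arrays only through the group where it was high, so its direction was set by the filter. The part of these markers in the rise of Pik3cg was not tested.

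Among the other subunits of the mTOR complexes, 1 of 10 rose and 2 fell, with a median of -0.54 log2. Akt1s1, which encodes PRAS40, an Akt substrate that holds mTOR complex 1 back, was lower at -1.20 ± 0.23 log2 (limma adjusted p = 0.0256). Mlst8, a subunit of both complexes, was lower at -1.10 ± 0.25 (adjusted p = 0.031). Prr5l, which binds the second complex, was higher by 0.91 ± 0.23 (adjusted p = 0.0376). Rictor, which defines the second complex as Raptor does the first, differed by 0.09 ± 0.31 (adjusted p = 0.824).

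Of the TSC, Rheb and AMPK inputs, 1 of 16 rose and none fell, with a median of -0.13 log2. Prkag2, a regulatory subunit of AMPK, the energy sensor that restrains mTOR complex 1, was higher by 0.97 ± 0.22 log2 (limma adjusted p = 0.0316). Prkab1, another AMPK subunit, had the next smallest p and differed by -0.55 ± 0.19 (adjusted p = 0.0724). In this list 15 of the 16 genes did not pass, and neither did Tsc1 and Tsc2.

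Amino acid sensing at the lysosome had the most calls of the 7 lists, with 8 of 26 measured genes lower, none higher and a median of -0.42 log2. Beside this, 12.2% of genes with a symbol were called lower. Of genes above the 75th percentile of mean level it was 18.9%, with a median of -0.31. Sec13 was lowest in p, at -1.43 ± 0.20 log2 (limma adjusted p = 0.0174). With Seh1l, at -1.04 ± 0.23 (adjusted p = 0.0292), it belongs to the GATOR2 complex and also to the nuclear pore and, for Sec13, to the vesicle coat at the endoplasmic reticulum. Lamtor1 to Lamtor5 encode the Ragulator complex, which anchors the Rag GTPases and so mTOR complex 1 to the lysosome. Lamtor4 was lower at -1.13 ± 0.21 (adjusted p = 0.0247), Lamtor5 at -0.84 ± 0.18 (adjusted p = 0.0283) and Lamtor2 at -1.09 ± 0.23 (adjusted p = 0.0285). The other members, Lamtor1 at -0.81 and Lamtor3 at -0.79, also passed and are named after their values were seen, and 1 of the 3 Lamtor3 probes passed in the fit of single probes. Each of the 5 Lamtor genes was thus called lower. Sesn3, a sestrin of the leucine sensing branch and itself a Foxo target, was lower at -0.84 ± 0.19 (adjusted p = 0.0309).

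Among the outputs of mTOR complex 1, 1 of 20 rose and 2 fell, with a median of -0.41 log2. Eif4ebp1 and Eif4ebp2 encode repressors of cap-dependent translation that the complex phosphorylates. Eif4ebp1 was lower at -1.13 ± 0.25 log2 (limma adjusted p = 0.0307) and Eif4ebp2 at -0.59 ± 0.17 (adjusted p = 0.0497). Hif1a, the hypoxia factor whose synthesis the complex raises, was higher by 0.90 ± 0.20 (adjusted p = 0.031), but its other probe gave -0.47, so the probes disagreed.

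Foxo partners and regulators had 6 of 24 genes lower and none higher, with a median of -0.45 log2. The shares called lower were 12.2% of genes with a symbol and 18.9% of genes above the 75th percentile of mean level. Sirt2, a deacetylase of Foxo proteins, was lower at -1.07 ± 0.20 log2 (limma adjusted p = 0.0244). Prmt1, an arginine methyltransferase that modifies Foxo1 near its Akt site, was lower at -1.29 ± 0.26 (adjusted p = 0.0269). Cdk2, a cell cycle kinase that phosphorylates Foxo1, was lower at -1.55 ± 0.34 (adjusted p = 0.0292). The 14-3-3 genes Ywhab, at -0.93 ± 0.23 (adjusted p = 0.0353), and Ywhae, at -0.75 ± 0.19 (adjusted p = 0.0375), and the nuclear exporter Xpo1, at -0.90 ± 0.23 (adjusted p = 0.0381), were lower too. These proteins serve many clients besides Foxo. Foxo6, the fourth Foxo gene, differed by 0.58 ± 0.29 (adjusted p = 0.157).

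Foxo target genes split, with 1 of 33 higher, 5 lower, 27 not passing and a median of -0.03 log2. Both D-type cyclins that Foxo factors are known to repress passed, in opposite directions. Ccnd2 was higher by 1.88 ± 0.36 log2 (limma adjusted p = 0.0252), and Ccnd1 was lower at -1.69 ± 0.36 (adjusted p = 0.0284). Ccng2, a cyclin of arrested cells that Foxo factors turn on, was lower at -1.18 ± 0.33 (adjusted p = 0.0457). The autophagy gene Map1lc3b at -0.72 ± 0.19 (adjusted p = 0.0386), the PI3K inhibitor gene Pik3ip1 at -0.87 ± 0.25 (adjusted p = 0.0465) and Sesn3 were the other 3. Cdkn1b, the p27 inhibitor that is a textbook Foxo target, differed by -0.39 ± 0.18 (adjusted p = 0.131).

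**Figure D4:**
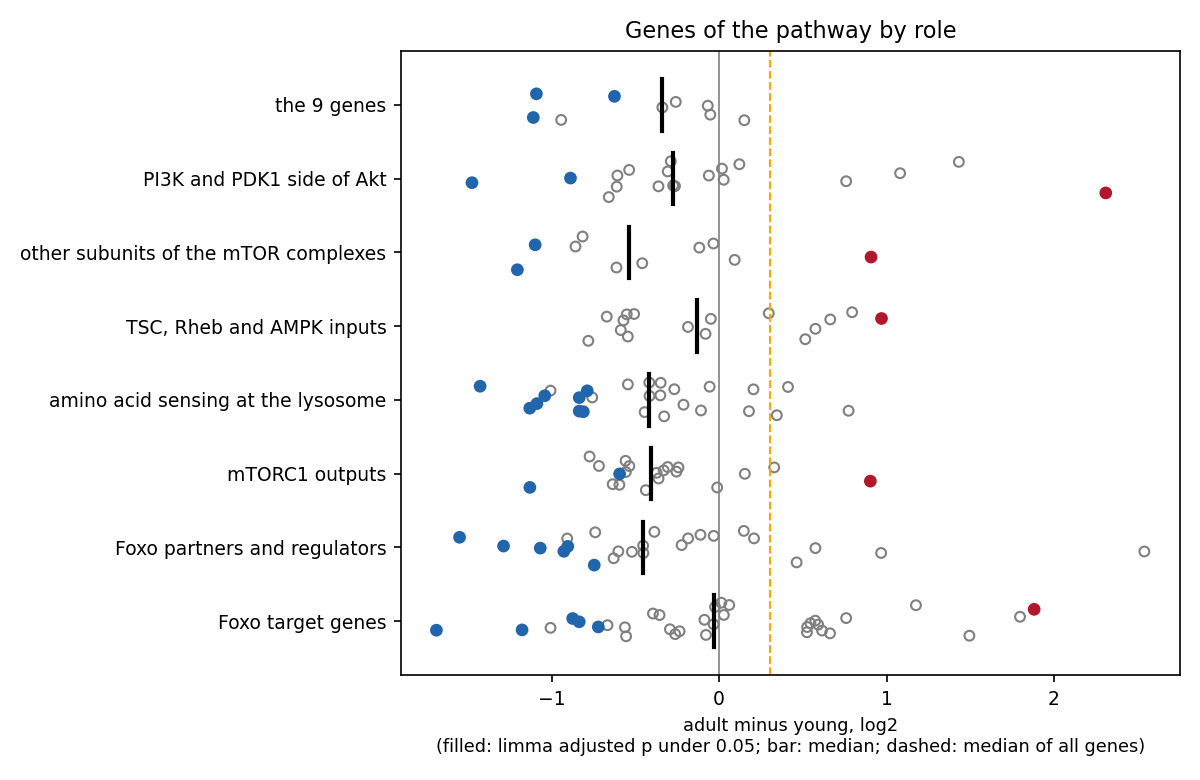
Difference between adult and young cells in log2 units for each measured gene of the 7 lists and for the 9 genes, which are given in the top line. Filled points passed the threshold, the short bar is each list's median and the dashed line the median of all genes (0.30). The medians lie between -0.54 and -0.03, and the amino acid sensing list has 8 filled points, all below 0.

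Promoters of 8 of the 9 genes (all but Foxo4), 12 in all, were matched by symbol in a RefSeq table on GRCm38.p6, as the 250 bases before each start. The forkhead site GTAAACA, read on both strands, was in 1 of these 12 and in 3.17% of all 32851 promoters. That promoter belongs to an Akt1 start, and the match begins 161 bases before it. The other Akt1 promoter, at chr12:112674277-112674526, held no forkhead match and 4 matches of the GC box GGGCGG. The promoter with the forkhead site is shown, matches in capitals, beside the Akt2 promoter that holds a GC box on the other strand, as CCGCCC. The GC box was in 5 of the 12 promoters and in 32.74% of all. Among Foxo target genes, 4 of the 27 with a promoter in the table held the forkhead letters, and among 24 promoters of the amino acid sensing genes 5 held the E-box CACGTG, against 6.02% of all. The E-box was also in 15.62% of the Foxo target promoters, and the GC box in 62.5% of the amino acid sensing promoters and 81.25% of the Foxo target promoters. These matches describe letters in a window, and binding was not measured.
Akt1 chr12:112674885-112675134 minus strand: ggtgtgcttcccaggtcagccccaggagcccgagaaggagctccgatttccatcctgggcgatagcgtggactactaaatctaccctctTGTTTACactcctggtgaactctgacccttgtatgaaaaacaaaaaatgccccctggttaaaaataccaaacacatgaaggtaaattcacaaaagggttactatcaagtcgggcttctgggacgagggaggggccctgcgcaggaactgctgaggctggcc
Akt2 chr7:27591302-27591551 plus strand: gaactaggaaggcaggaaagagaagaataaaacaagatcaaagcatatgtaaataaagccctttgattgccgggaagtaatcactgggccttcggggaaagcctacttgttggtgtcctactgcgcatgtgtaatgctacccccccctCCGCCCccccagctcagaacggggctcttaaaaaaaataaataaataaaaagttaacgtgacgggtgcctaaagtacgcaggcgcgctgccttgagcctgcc

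Genes whose profile over the 6 arrays lay nearest to a member were found among 14195 genes, by the root mean square distance of values centred on each gene's mean. Nearest to Akt1 were Snx12, a sorting nexin of endosomes, at 0.0358 log2, and Snrpd3, a core spliceosome protein, at 0.0482. Nearest to Akt2 were Fbxw8, a ubiquitin ligase subunit, at 0.0315, and Pigo, an enzyme of GPI anchor synthesis, at 0.0331. Mtor was nearest to Ddr2, a collagen receptor, at 0.0345, and to Ehd3 at 0.0505. Tsc2 was nearest to Zfp442 (0.0399) and Tcf7l2 (0.0413), and Tsc1 to Cchcr1 (0.0614) and Hinfp (0.0628). Rptor was nearest to Usf3 (0.0839) and Ikbke (0.112), Foxo1 to Pi4k2b (0.0665) and Usp42 (0.0712), and Foxo3 to Pgbd1 (0.0624) and Kdr (0.0649). Foxo4 had no close neighbour by comparison, with Wscd1 at 0.135 and Sike1 at 0.143. Among the 9 genes themselves, Mtor and Tsc1 (0.13) and Foxo3 and Tsc2 (0.144) were the nearest pairs, and Akt1 and Akt2 lay 0.261 apart. Such distances describe 6 arrays and say nothing of shared function.

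All 14 satellite cell markers were well above background on all 6 arrays, and their signals, as multiples of the array's 75th percentile, summed to between 106 and 149 on adult arrays and between 156 and 171 on young arrays. Of the 14, 6 were lower in adult cells and none higher. Beside this and the marker counts that follow, 12.2% of genes with a symbol were called lower and 14.7% higher. Of genes above the 75th percentile of mean level, 18.9% were called lower. Pax7 (-0.34 ± 0.25 log2, limma adjusted p = 0.304) and Myf5 (-0.37 ± 0.22, limma adjusted p = 0.222) did not pass. Myogenic differentiation markers summed to between 5.89 and 7.05 on adult arrays and between 24.7 and 28.8 on young arrays (5 of 10 lower). Cycling cell markers summed to between 2.71 and 2.98 on adult arrays and between 6.30 and 13.0 on young arrays (4 of 9 measured lower). Of these 9, Cdk1 (0.68 ± 0.30 log2, limma adjusted p = 0.118) and Ccnb1 (0.74 ± 0.52, limma adjusted p = 0.29) were above 0 and did not pass. Fibro-adipogenic markers summed to between 31.1 and 49.2 on adult arrays and between 86.6 and 111 on young arrays (2 of 7 measured lower). The collagen gene Col3a1 had the highest signal in that sum and differed by -1.13 ± 0.29 log2, while Lum (1.04) and Ly6a (0.12) were above 0 without passing. Myofibre markers summed to between 18.5 and 23.8 on adult arrays and between 35.3 and 51.4 on young arrays (4 of 8 lower, 1 higher). The sums of these marker lists moved in the direction of Akt1, Akt2, Foxo4, Cdk2 and Ccnd1, and their part in those results was not tested. Ptprc, Itgam, Pecam1 and Ly6a, which encode the antigens CD45, CD11b, CD31 and Sca1 that the sort removed, were well above background on all 6 arrays and did not pass in either direction. Of the antigens the sort selected, integrin alpha7 (Itga7) was lower in adult cells at -1.08 ± 0.19 log2 (limma adjusted p = 0.023), and Cd34 did not pass. Pdgfra, a defining marker of fibro-adipogenic progenitors, and Lep, of adipocytes, were not well above background on any array. Endothelial, mural and adipocyte sums overlapped between the groups. Acta2 had the highest mean signal of the mural list and Fabp4 of the adipocyte list, so the overlap does not describe the other markers. Of 8 mural markers 4 were higher in adult cells and 1, Acta2, was lower at -2.10 ± 0.20 log2 (limma adjusted p = 0.0092), with a list median of 1.24. Of 5 measured adipocyte markers 3 were higher, with a list median of 1.28, and Fabp4 differed by -0.49 ± 0.68 (limma adjusted p = 0.582). Between 47585 and 49965 probes were well above background on adult arrays and between 41531 and 45929 on young arrays.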

How the data were processed

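The arrays were single-colour Agilent arrays, 1 per sample, and per the file headers the program Feature Extraction, version 10.7.3.1, read them. The deposited intensity values were background-subtracted and detrended by that program, per the file headers. The deposited series matrix holds log2 values with a median of 7.56 in each column, within 0.000106 of normexp correction (offset 50) and quantile normalization of the scanner signals. Here the 3671 control spots and outlier spots were left out, spots of a probe were averaged, and log2 intensity was expressed relative to the array's own 75th percentile. A probe had to be well above background on 3 or more arrays, and the brightest such probe stood for its gene. Symbols were updated by accession for 26300 probes, by current symbol for 2044 and by older symbol for 355, and 26982 kept the files' name. The comparison of adult with young used lmFit and eBayes of limma 3.58.1 under R 4.3.3 (files read with the data.table package, version 1.17.8). Probe positions are on mm9, as in the files. The 9 genes, the lists and the naming rule were chosen with earlier results of these data known. That rule takes the 9 genes, up to 6 genes past the threshold per list with the smallest p (the best 2 where fewer than 2 passed) and the 2 nearest profiles per gene. Rictor, Foxo6, Cdkn1b, Lamtor1, Lamtor3 and the markers named singly were named outside it. Deviations of samples with the same replicate number correlated at -0.0024, -0.094 and -0.14, so the numbers do not pair samples. Precision is limited by having 3 arrays a group.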

Additional observations from a re-analysis of the deposited data

How the results depend on the processing

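Alternatives covered scaling, background correction, filters, choice of probe, variance model, array weights, blocks by array row and by replicate number, and leaving out each array; within-row values were added after seeing the data. The count of called genes among the 9 was 3, but 1 with the 75th percentile taken over probes above background on all arrays, 1 without a filter on dim probes, 1 with array row as a block, 2 with trended and robust moderation, 4 with probes well above background on all 6 arrays, 6 with median scaling, 0 with a replicate block and 0 to 1 with an array left out. With cyclic loess, quantile normalization, normexp, the series matrix and array weights the count was also 3, but Rptor passed in place of Akt2. In these settings the limma adjusted p lay between 0.012 and 0.0434 for Rptor and between 0.0522 and 0.133 for Akt2. The median of the 9 genes moved from -0.34 log2 to -0.88 with median scaling and to -0.14 with cyclic loess. It was -0.18 with normexp or the series matrix, -0.20 with the percentile over probes above background and -0.23 with quantile normalization. Over all genes 9144 passed (6434 higher, 2710 lower), against 5960 with the row block, 5278 with cyclic loess (3132 higher, 2146 lower), 5657 with quantile normalization (2876 higher, 2781 lower), and 295 to 7691 with an array left out, the most without young replicate 2. The replicate block gave 0 of all genes by limma's adjusted p (12728 at an unadjusted p under 0.05), with Akt1 at an adjusted p of 0.0749. The split was 3451 higher and 8813 lower with median scaling, 7899 and 1785 with the 75th percentile over probes above background, and 4417 and 4120 with normexp or the series matrix. Of the pathway lists 29 genes passed, against 16 with the row block, 73 with median scaling, 47 with trended and robust moderation, 0 with the replicate block and 0 to 16 with an array left out. Foxo1 turned to -0.39 with median scaling and ranged from -0.010 (without adult replicate 1) to 0.30 with an array left out. Foxo3 turned to 0.088 with the 75th percentile over probes above background, 0.12 with cyclic loess, 0.23 with the mean of its probes, 0.028 with normexp and with the series matrix, 0.083 with quantile normalization, and 0.063 and 0.11 without adult replicate 2 and young replicate 1, in a range from -0.17 with an array left out. Tsc2 turned to 0.073, 0.15 and 0.069 under the same percentile, loess and quantile settings and ranged from -0.13 to 0.012 (without young replicate 1) with an array left out. None of these turned values passed, and the cause was not tested. Foxo4, at a dim signal, had the largest SE of the 9 genes.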
